A study of Mus musculus with 24 samples.

Results

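Microglia from retinas with severe DBA/2J glaucoma were compared with microglia of the DBA/2J Gpnmb+ control strain at the same age. The retinas were chosen by label alone: 3 of the 24 retinas in the series carry the grade severe at 12 months, and they come from 2 of 15 animals. They are the left eye of DBA/2J animal 1 and both eyes of DBA/2J animal 3. Their controls were the 9 Gpnmb+ retinas of 5 animals aged 12 months. Counts of the eyes of an animal with the same grade were summed, so the comparison rested on 2 severe sums against 5 Gpnmb+ sums, and its small n limits every statement here.

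RNA was sequenced from each retina separately after 100 to 600 cells had been sorted as positive for CD11b and Fcrls and negative for Ly6c. All DBA/2J retinas are labelled Gpnmb-/- Tyrp1b-/-. The controls are labelled DBA/2J Gpnmb+ with the genotype Gpnmb+/+ Tyrp1b-/-, so the Tyrp1b allele is shared by all groups and only Gpnmb differs. No retina was treated. The same fit also held 4 moderate retinas of 3 animals and 3 mild retinas of 2 animals, all DBA/2J aged 12 months, and 5 retinas of 5 DBA/2J animals aged 6 months. DBA/2J animal 1 had a severe left eye and a moderate right eye and so entered the fit with 2 sums. The labels do not state how an eye was graded.

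DBA/2J mice lose pigment from the iris with age, the pressure in the eye rises and the optic nerve degenerates, whereas mice with a working Gpnmb on this background are spared this glaucoma. Microglia are the resident macrophages of the retina. Near injured neurons they are known to take up debris, raise lysosomal, lipid-carrying and antigen-presenting genes, and lower the genes of their resting state. The pattern seen in neurodegeneration is often called MGnD, and Apoe and Trem2 are central to it. C1q, made by microglia, starts the complement cascade that tags synapses for removal. Immediate early genes such as Jun and Egr1 respond within minutes to a stimulus, which can include the dissociation of tissue.

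3 promoters are shown for the gene groups described below, because each holds a known regulatory motif that is commoner in its group than in all genes. They were read from RefSeq (GRCm38.p6), run 5′ to 3′ on the strand of the gene and hold 250 bases before and 50 bases after the transcription start. Capitals mark the motif match. Ctsd encodes the lysosomal protease cathepsin D (chr7:142387778-142388077, minus strand), and the capitals mark TCACGTGA, a palindrome bound by TFEB-type factors. B2m encodes the light chain of MHC class I (chr2:122147437-122147736, plus strand), and the capitals mark the core of an interferon-stimulated response element, GAAA and GAAA with any 2 bases between them. Btg2 is an immediate early gene with antiproliferative activity (chr1:134079106-134079405, minus strand), and the capitals mark TGACGTCA, the cAMP response element.
Ctsd: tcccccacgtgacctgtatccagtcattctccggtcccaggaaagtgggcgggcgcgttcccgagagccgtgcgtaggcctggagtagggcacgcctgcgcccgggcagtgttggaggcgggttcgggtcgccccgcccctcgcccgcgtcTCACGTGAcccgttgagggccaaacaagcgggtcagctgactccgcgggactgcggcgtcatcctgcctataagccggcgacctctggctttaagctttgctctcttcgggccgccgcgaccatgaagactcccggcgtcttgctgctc
B2m: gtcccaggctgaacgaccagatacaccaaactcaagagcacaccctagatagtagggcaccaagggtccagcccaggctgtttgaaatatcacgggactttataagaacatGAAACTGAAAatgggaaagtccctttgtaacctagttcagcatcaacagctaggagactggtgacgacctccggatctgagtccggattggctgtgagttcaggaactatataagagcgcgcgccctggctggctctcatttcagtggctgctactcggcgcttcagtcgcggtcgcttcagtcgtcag
Btg2: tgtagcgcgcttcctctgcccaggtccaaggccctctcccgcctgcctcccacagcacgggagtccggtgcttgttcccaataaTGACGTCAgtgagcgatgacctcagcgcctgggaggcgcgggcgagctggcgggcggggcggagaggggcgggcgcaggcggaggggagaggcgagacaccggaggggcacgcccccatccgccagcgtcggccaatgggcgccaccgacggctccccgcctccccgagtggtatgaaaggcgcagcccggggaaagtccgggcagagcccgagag

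Over both strands, TCACGTGA stood in a promoter of 5 of 29 lysosomal genes with a RefSeq promoter (17.2%), Ctsa, Ctsd, Atp6v0d1, Atp6v1a and Mcoln1, against 1.12% of 27025 genes in all. The interferon-stimulated element stood in 5 of 19 MHC class I genes (26.3%), H2-T22, H2-T23, B2m, Psme1 and Erap1, against 3.99% of all genes. TGACGTCA stood in 4 of 22 immediate early genes (18.2%), Btg2, Dusp1, Ppp1r15a and Maff, against 2.03% of all genes. Each printed promoter held 1 match to 1 of these motifs and none to the others. A match describes the letters in this window and nothing about binding in these cells.

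Depth and the number of genes detected differed between libraries. Total counts of the severe retinas were 9144746, 10662178 and 20081114, with 12667, 10739 and 15046 genes detected. Gpnmb+ retinas had 977886 to 14845311 counts and 3469 to 14468 genes, and 5 of the 9, both eyes of animals 1 and 2 and the right eye of animal 3, had fewer than 10000 genes. Mitochondrial genes took 1.43 to 1.80% of the counts of severe retinas and 1.21 to 4.71% of those of Gpnmb+ retinas. Leaving out the 5 retinas with few genes leaves 4 Gpnmb+ retinas of 3 animals. Values without them are given below for the lysosomal, MHC class I, immediate early, interferon and rod lists and for some genes. They are not given for the complement, MGnD, lipid handling, phagocytosis and resting-state lists. The labels give no sex. By Xist and Y-linked genes, severe animals 1 and 3 and Gpnmb+ animals 1 to 4 read as female, while Gpnmb+ animal 5 and the mild animals 4 and 5 read as male. The right eye of Gpnmb+ animal 5 held Xist (124.5 CPM) beside 226.7 CPM of Y-linked genes. CPM here are counts scaled to a library total of 1000000.

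**Figure D1:**
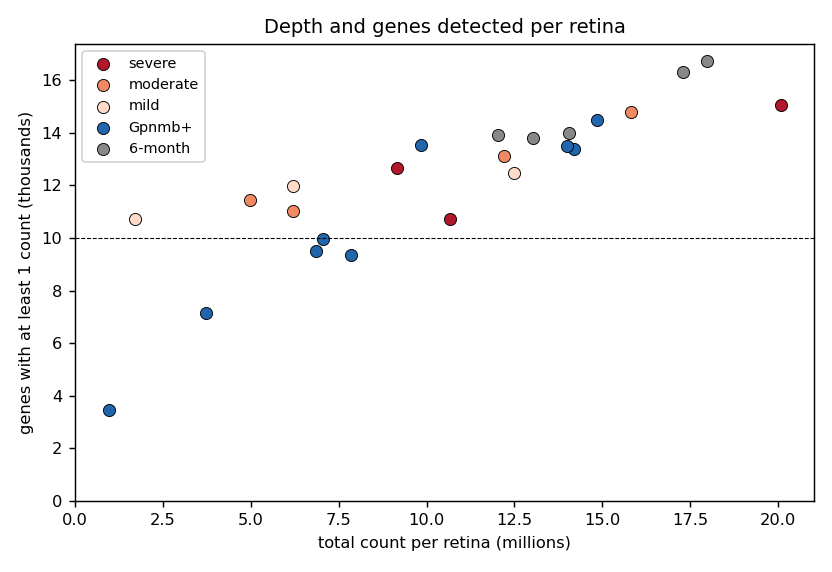
Total count per retina (horizontal, in units of 1000000) against the number of genes with at least 1 count (vertical, where 10 stands for 10000), 1 point per retina, coloured by group. The 3 severe retinas lie above the dashed line at 10000 genes, and 5 of 9 Gpnmb+ retinas lie below it.

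The gene that separates the strains gave no check of the labels. Gpnmb, which encodes a membrane glycoprotein of pigment cells and phagocytes (chromosome 6, 49036546 to 49070929, GRCm38), had 0 counts in the 3 severe retinas, where 0 allows up to 0.328, 0.281 and 0.149 CPM. It also had 0 counts in 8 of 9 Gpnmb+ retinas and 30.9 CPM in the left eye of Gpnmb+ animal 5. Tyrp1, a melanosomal enzyme gene, had 0 counts everywhere. Fcrls, the marker of the sort, had 59.9, 16.3 and 23.9 CPM in severe retinas and 0 to 78.7 CPM (median 2.40) in Gpnmb+ retinas, so its RNA was low in all of them. Ly6c2 had 0 counts in the severe retinas. Microglial identity genes were abundant: Cx3cr1, the fractalkine receptor, had 3992, 3172 and 4901 CPM in severe retinas.

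By the main test the 2 severe animals gave no call over the whole transcriptome. Of 15959 genes tested with edgeR (quasi-likelihood F test, adjusted over all of them) 0 passed 0.05 (0%), higher or lower, and the smallest adjusted p was 0.982. A nominal p, that is before adjustment, was under 0.05 for 683 genes (4.28%), of which 491 were higher in severe retinas (3.08%) and 192 lower (1.2%). DESeq2 on the same sums gave 277 genes, 29 higher and 248 lower, and in simulated counts of this comparison it made 305 false calls against 0 by edgeR. The simulated spread was the one that edgeR had estimated for each gene, which can favour edgeR. How many of the 277 are false therefore cannot be read from it. The number of genes passing 0.05 was 46 with sample quality weights, 32 with animal as a random effect and 10 when sparse genes were kept. In the same simulation edgeR recovered 0% of genes changed 2-fold, 1.85% of those changed 4-fold and 25% of those changed 8-fold. Differences of a few fold were thus mostly not detected there. The changed genes were drawn from all that averaged at least 4 on the log2 CPM scale. Recovery among abundant genes alone was not counted. The gene groups are therefore described by their values, by the number of members past a nominal p of 0.05, and by the number whose severe sums both lay above, or both below, all 5 Gpnmb+ sums. Over all genes the second count came to 907 above (5.68%) and 235 below (1.47%). Abundant genes lay above more often: of 388 genes whose average log2 CPM was at least 8, 18.6% lay above and 1.55% below, and 9.28% had a nominal p under 0.05 upward and 1.29% downward. The median log2 fold change of all genes was -0.06, and 46.0% of the fold changes were positive.

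Apoe, the main lipid carrier of microglia and of Müller glia (chromosome 7, 19696109 to 19699188), was higher in each severe retina than in any control retina. It had 15550 CPM in the left eye of animal 1 and 6869.7 and 8563 CPM in the right and left eyes of animal 3. Gpnmb+ retinas had 187 to 5248 CPM with a median of 1234. The log2 fold change was 2.69 ± 0.62 (SE), with an edgeR adjusted p of 0.982, and it was 2.28 ± 0.67 without the retinas with few genes. Of the severe retinas 2 lay within the range of the moderate retinas, 8056 to 32974 CPM, and the right eye of animal 3 lay below it, while all 3 were above the mild retinas, at 2367 to 6410.3 CPM. Retinas of 6-month DBA/2J had 868 to 2341 CPM.

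Among the other genes of lipid handling, Apoc1, a small apolipoprotein whose gene neighbours Apoe, had 6.999, 0 and 1.195 CPM in severe retinas and at most 0.269 CPM in Gpnmb+ retinas. Soat1, which esterifies cholesterol for storage, had 89.7, 116 and 159 CPM against 0 to 83.4 CPM (median 36.9). Its 3 severe retinas lay above all 9 Gpnmb+ retinas, and the log2 fold change was 1.31 ± 0.54. Apoc2, which activates lipoprotein lipase, was read only in the left eye of animal 3 among these groups, with 4.43 CPM, so 1 retina carries its value. Of 25 tested members of the list, 18 had positive fold changes with a median of 0.53, and 5 were higher and 1 lower at a nominal p under 0.05. Above all Gpnmb+ sums lay 7 (28.0%), and below lay 0. Lpl, the lipase itself, had 0, 0 and 0.349 CPM, against 0 in the median Gpnmb+ retina and 37.7 CPM in the highest.

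Markers of other cells that make Apoe were set beside it. The summed level of 13 genes of Müller glia and astrocytes was 7332 to 15813 CPM in severe and 395 to 5491 CPM in Gpnmb+ retinas. In severe retinas nearly all of that was Apoe. In the left eye of Gpnmb+ animal 1 Apoe made up only 187 of 564 CPM. Without Apoe the summed level was 263 to 462 CPM in severe and 100.2 to 725 CPM in Gpnmb+ retinas. Of the 13 markers 7 had 0 counts in all 3 severe retinas, and 3 of the 8 tested, Apoe itself among them, had positive fold changes. The defining Müller markers Rlbp1 and Aqp4 were among those at 0, but they were also at 0 in 7 and 8 of the 9 Gpnmb+ retinas. Slc1a3, a glutamate transporter gene, had a log2 fold change of 0.43 ± 0.90.

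Lysosomal genes had the largest share of members above the controls among the 31 lists. Of 37 tested, 31 had positive fold changes with a median of 0.61, 11 were higher and 1 lower at a nominal p under 0.05, and 17 lay above all Gpnmb+ sums (45.9%) and 1 below. Among the 24 members that reached an average log2 CPM of 8, 14 lay above. Without the retinas with few genes the median was 0.39, 4 were higher and 1 lower at a nominal p under 0.05, and 19 of 37 lay above, where 9.69% of all genes did. No single gene of the list passed the adjusted threshold.

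Ctsd had 10517, 9954 and 9132 CPM in severe retinas and 2610 to 8580 CPM (median 5976) in Gpnmb+ retinas. The severe retinas were all higher, by a narrow gap to the eyes of Gpnmb+ animal 5, at 8580 and 8331 CPM. The log2 fold change was 0.80 ± 0.26, and 0.60 ± 0.30 without the retinas with few genes. Cathepsin B, a cysteine protease encoded by Ctsb, had 3157, 2572 and 3105 CPM against 578 to 2724 CPM (median 1477). Here 2 of 3 severe retinas were above all controls, and the log2 fold change was 0.87 ± 0.26. Ctss, encoding the protease that trims the MHC class II chaperone, had 12615, 14260 and 12378 CPM against 6164 to 10190 CPM (median 7495), a log2 fold change of 0.73 ± 0.24. All 3 severe retinas lay above the controls.

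Further lysosomal genes with a nominal p under 0.05 upward included Ctsl, Ctsz, Hexa, Lgmn, Psap, Grn and Atp6ap1, with log2 fold changes of 0.60 to 1.34. Lamp1, which encodes a lysosomal membrane protein, had a negative fold change. It had 113, 98.6 and 174 CPM in severe retinas and 114 to 879 CPM (median 410) in Gpnmb+ retinas, a log2 fold change of -1.67 ± 0.49 with an edgeR adjusted p of 0.982. Its left eye of animal 1 fell just under the lowest control and the left eye of animal 3 was inside the control range.

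The lysosomal levels were also set beside those of younger DBA/2J mice. Retinas of 6-month animals had 8755 to 9558 CPM of Ctsd, which overlap the severe values, and 2133 to 2423 CPM of Ctsb, below the severe values. For Apoe the 6-month retinas were below every severe retina. Severe against 6-month retinas was not tested here.

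**Figure D2:**
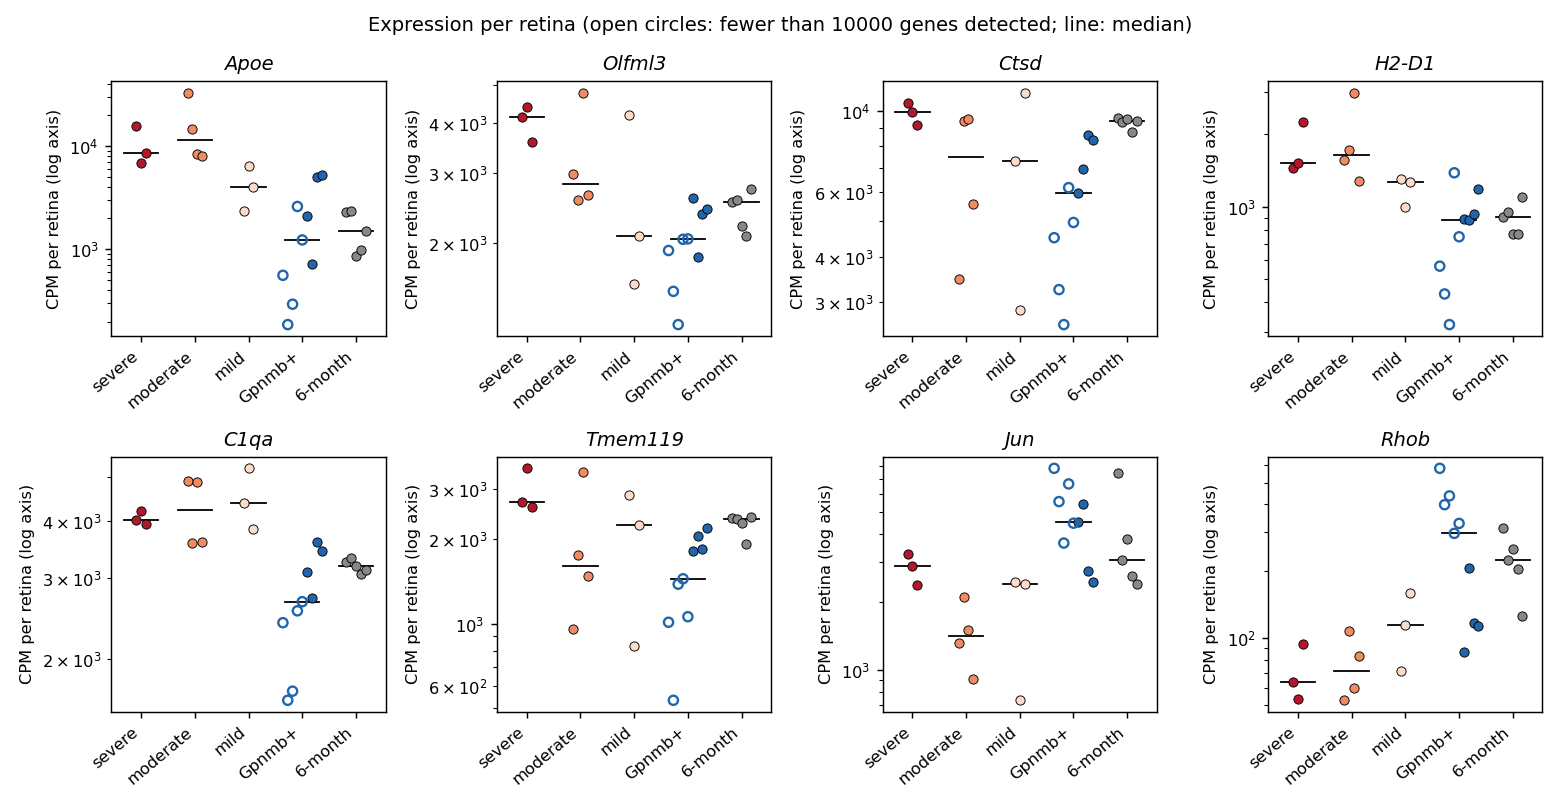
CPM per retina on log axes for 8 genes in the 5 groups of retinas, with a line at each group's median and open circles for retinas with fewer than 10000 genes. Severe retinas lie above all Gpnmb+ retinas for Apoe, Olfml3, Ctsd, H2-D1, C1qa and Tmem119, and the lowest Gpnmb+ values in those plots are mostly open circles.

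MHC class I molecules display peptides from inside the cell to CD8 T cells, and their classical heavy chain genes had severe values above those of all controls. H2-D1 (chromosome 17, 35262730 to 35267499) had 1445, 1524 and 2253 CPM against 323 to 1384 CPM (median 881). The severe retinas were above all controls, the closest being the left eye of Gpnmb+ animal 2, and the log2 fold change was 1.05 ± 0.25. H2-K1 had 667, 1036 and 1109 CPM against 208 to 584 CPM (median 457) without overlap, a log2 fold change of 1.09 ± 0.29. Without the retinas with few genes these were 0.98 ± 0.27 and 1.05 ± 0.31. The 6-month retinas had 769 to 1099 CPM of H2-D1 and moderate retinas 1279 to 2983 CPM.

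The nonclassical heavy chain genes H2-T23 and H2-Q6 had log2 fold changes of 0.94 ± 0.36 and 1.28 ± 0.46. B2m had 2184, 2869.9 and 2619 CPM against 1229 to 2273 CPM (median 1705), and 2 of 3 severe retinas lay above all controls. Of 21 members tested, 16 had positive fold changes with a median of 0.58, 4 were higher and 0 lower at a nominal p under 0.05, and 9 lay above all Gpnmb+ sums (42.9%) and 0 below. Without the retinas with few genes 9 of 21 lay above and the median was 0.35. Heavy chain genes are close paralogs among which reads can be divided, and the strain differs from the reference genome here, in all groups alike.

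MHC class II presents material taken up from outside. Of 11 genes tested, 8 had positive fold changes, with a median of 0.17 that became -0.65 without severe animal 3. Ctss and Ifi30, a thiol reductase gene, lay above all Gpnmb+ sums (18.2%) and 0 members lay below. Ctss, also counted among the lysosomal genes, and Ciita were the 2 with a nominal p under 0.05. Ciita, the master regulator of the class II genes, had 0, 14.1 and 11.2 CPM in severe retinas and 0 in all Gpnmb+ retinas, so animal 3 alone carries it. H2-Ab1 had 93.1, 422 and 247 CPM, within the Gpnmb+ range of 0 to 1151 CPM (median 146). Interferon-response genes had a median of 0.32 over 27 members, with 1 higher and 0 lower at a nominal p under 0.05, and the median was -1.21 without severe animal 3 and -0.071 without the retinas with few genes.

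C1qa and C1qb encode chains of C1q. C1qa (chromosome 4, 136895917 to 136898803) had 4030.3, 4216 and 3952 CPM against 1624 to 3602 CPM (median 2669), a log2 fold change of 0.64 ± 0.20. C1qb had 3963, 4445 and 3568 CPM against 1638 to 3149 CPM (median 2543), a log2 fold change of 0.61 ± 0.25. Severe retinas lay above every control for each of these genes. The 4 Gpnmb+ retinas with at least 10000 genes had 2719 to 3602 CPM of C1qa and 2521 to 3149 CPM of C1qb. C1qc, the remaining chain, had 972, 1341 and 1417 CPM inside the control range of 800.5 to 3295 CPM (median 1793), with a log2 fold change of -0.59 ± 0.44.

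C4b, which acts just after C1q in the classical pathway and shares sequence with C4a, had 180 CPM in the left eye of animal 1 and 63.5 and 189 CPM in the eyes of animal 3. Gpnmb+ retinas had 0 to 15.02 CPM, with 5 of 9 at 0. The groups did not overlap, and the log2 fold change was 5.32 ± 1.83, or 4.58 ± 1.88 without the retinas with few genes. Moderate retinas had 115 to 199 CPM, mild retinas 0 to 42.2 CPM and 6-month retinas 0 to 18.5 CPM. Cfb, of the alternative pathway, had 0, 0 and 12.1 CPM against at most 0.101 CPM, so 1 retina carries it. In the whole list 11 of 15 tested were positive with a median of 0.61, and 4 were higher and 0 lower at a nominal p under 0.05. Above all Gpnmb+ sums lay 3 (20%), and below lay 0. Of the 6 members that reached an average log2 CPM of 8, 2 lay above, and 18.6% of all such genes did. The share above was thus close to that of abundant genes in general. The list median was -0.12 without severe animal 3.

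The MGnD list holds genes that microglia induce near damaged neurons, and it shares members with the lists already described. Of 36 tested, 24 had positive fold changes with a median of 0.51, 6 were higher and 0 lower at a nominal p under 0.05, and 11 lay above all Gpnmb+ sums (30.6%) and 0 below. The 6 were Apoe, Ctsb, Ctsd, Itgb2, Ctsl and Ctsz. Itgb2, the shared chain of the complement receptor integrins, had 650, 634 and 585 CPM against 0 to 525 CPM (median 311), with all 3 severe retinas above. In the 4 Gpnmb+ retinas with at least 10000 genes Itgb2 had 311 to 525 CPM. Without severe animal 3 the median of the list was 0.01.

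The classical surface and secreted markers of this state overlapped between the retinas of the groups. Trem2, the lipid receptor upstream of Apoe, had 1471, 1265 and 1522 CPM against 768 to 1567 CPM (median 1339), a log2 fold change of 0.33 ± 0.28, although its 2 severe sums lay above the Gpnmb+ sums. Axl, a receptor for dying cells, had 91.1, 57.0 and 156 CPM against 0 to 147 CPM (median 51.6). Clec7a, a receptor for fungal glucans that marks MGnD cells, had 48.1, 85.2 and 77.6 CPM against 53.4 to 538 CPM (median 89.3). Spp1, Lgals3, Itgax and Cst7 each had a retina at or under 17.6 CPM in the severe group and none exceeded 167 CPM. Their standard errors, 1.70 to 2.65 on the log2 scale, exceeded their fold changes, and each turned negative without severe animal 3.

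Among phagocytosis receptors, Itgb2 had the smallest p, followed by Fc receptors for antibody-coated targets. Fcgr1, the high-affinity IgG receptor, had 392, 542 and 506 CPM against 4.09 to 362 CPM (median 260.3). The inhibitory receptor gene Fcgr2b had 806, 907 and 808 CPM against 6.14 to 635 CPM (median 398). For both genes the 3 severe retinas lay above all controls, with log2 fold changes of 0.94 ± 0.33 and 1.13 ± 0.41. Controls with at least 10000 genes had 215 to 334 CPM of Fcgr1 and 398 to 635 CPM of Fcgr2b. For Fcgr3 2 of 3 severe retinas lay above all controls, and Fcgr4 overlapped, with a log2 fold change of 0.95 ± 1.32. In the list 14 of 23 tested were positive, with a median of 0.33, and 4 were higher and 1 lower at a nominal p under 0.05. Above all Gpnmb+ sums lay 6 (26.1%), and below lay 0.

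**Figure D3:**
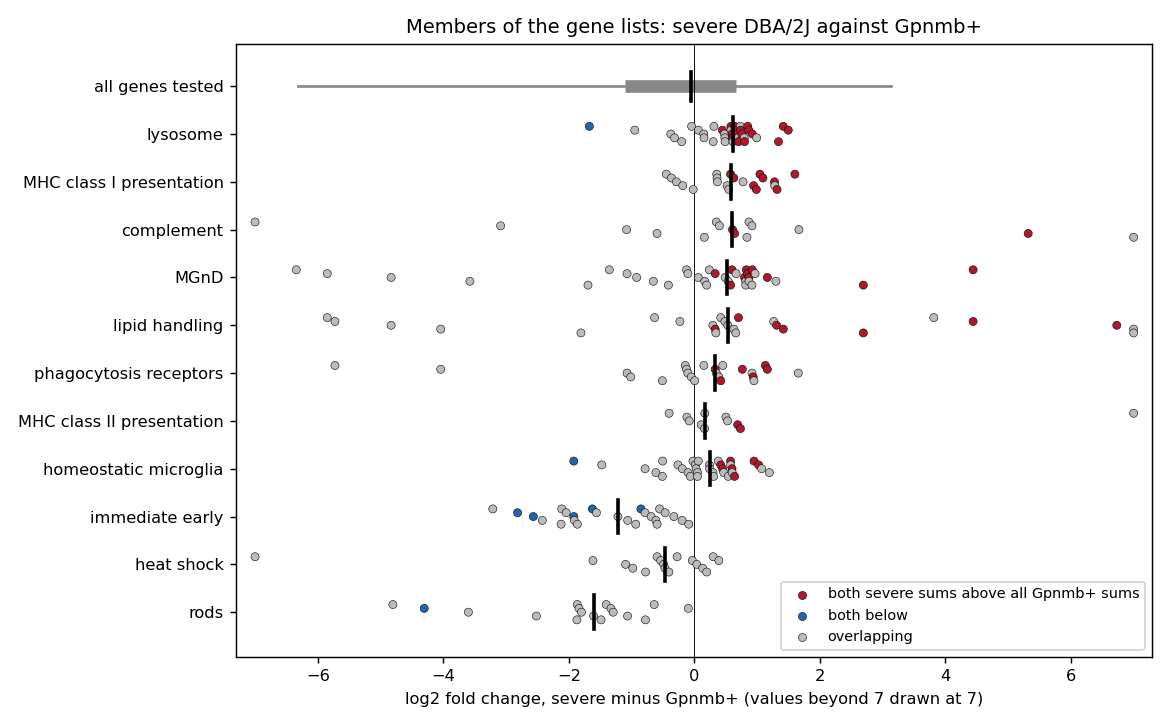
Log2 fold change of each tested list member, severe minus Gpnmb+, with a bar at each list's median and, in the first row, a thick line from the lower to the upper quartile and a thin line between the outer percentiles (5 and 95) of all genes. Members in red have both severe sums above all Gpnmb+ sums, those in blue both below. Every tested member of the immediate early and rod lists lies on the negative side.

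Genes of resting microglia had more positive than negative fold changes, few of them past a nominal p of 0.05. Olfml3, an extracellular matrix gene typical of microglia, had 4143, 4390.3 and 3584 CPM against 1249 to 2599 CPM (median 2045), the smallest p of the higher genes that reached an average log2 CPM of 4. Its log2 fold change was 1.03 ± 0.23 with an edgeR adjusted p of 0.982, and 0.92 ± 0.27 without the retinas with few genes. Tmem119 had 2698, 3548 and 2582 CPM against 534 to 2179 CPM (median 1441), a log2 fold change of 0.95 ± 0.28. In both genes every severe retina was above every control.

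P2ry12, the purine receptor that steers microglial processes, had 2992, 2771 and 2714 CPM inside the control range of 1452 to 3431 CPM (median 2441), a log2 fold change of 0.30 ± 0.29. Cx3cr1 and Csf1r had log2 fold changes of 0.31 ± 0.30 and 0.24 ± 0.32, and Sall1, a transcription factor of microglial identity, -0.06 ± 0.46. These directions depend on the fit: without the retinas with few genes P2ry12 was at 0.027, Csf1r at -0.19 and Sall1 at 0.35, and with quality weights P2ry12 was at -0.046. Over the list 23 of 34 were positive with a median of 0.24, and 3 were higher and 1 lower at a nominal p under 0.05. Above all Gpnmb+ sums lay 7 (20.6%), and below lay 1 (2.94%). The 7 were all among the 25 members that reached an average log2 CPM of 8, and 18.6% of all such genes lay above. The 1 lower gene was Rhob, which the immediate early list holds too. Outside the lists, Hcar2, a receptor for hydroxybutyrate and niacin, had 785, 781 and 615 CPM against 0 to 524 CPM (median 204), a log2 fold change of 1.68 ± 0.48.

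**Figure D4:**
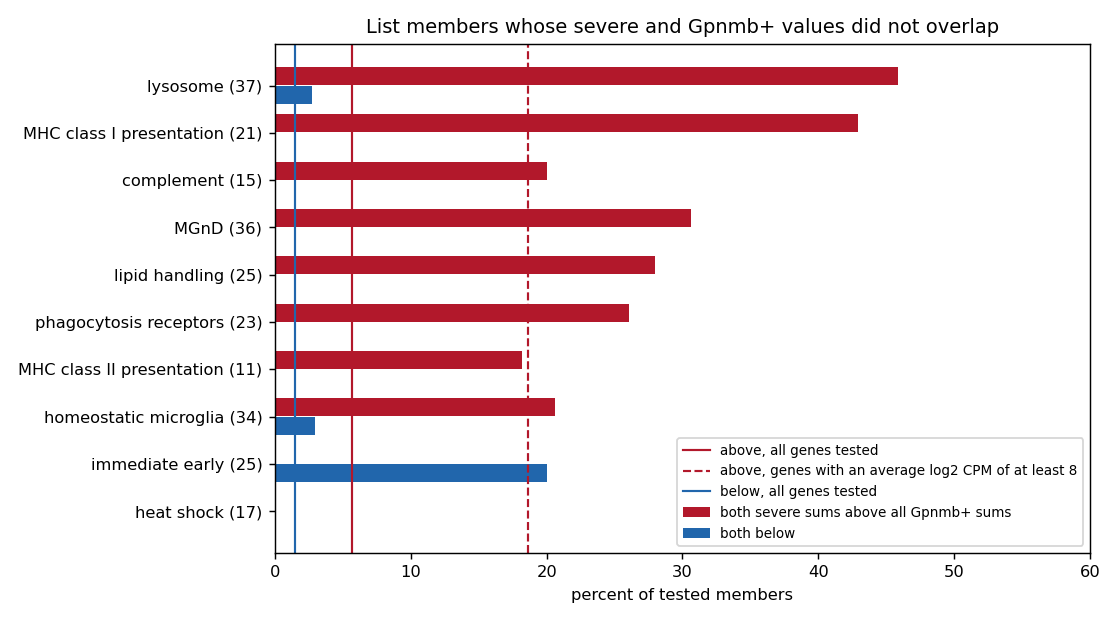
Percent of the tested members of each list (number in brackets) whose 2 severe sums lay above (red) or below (blue) all 5 Gpnmb+ sums, with lines for the same shares over all genes and, dashed, over abundant genes. Lysosomal (45.9%) and MHC class I genes (42.9%) reach farthest beyond the lines at 5.68% and 18.6%.

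Immediate early genes had negative fold changes throughout the list, although most members overlapped the controls. All 25 tested had negative fold changes, with a median of -1.22, 6 were lower and 0 higher at a nominal p under 0.05, and 5 lay below all Gpnmb+ sums (20%) and 0 above. Rhob, a small GTPase induced by stress, had 63.5, 53.6 and 94.3 CPM against 86.4 to 579 CPM (median 296), a log2 fold change of -1.92 ± 0.60. Klf2, a transcription factor that restrains inflammation, had 38.1, 25.6 and 15.8 CPM against 38.1 to 502 CPM (median 80.7), a log2 fold change of -2.57 ± 1.03. The eyes of Gpnmb+ animal 1 held the highest Klf2 values, 450 and 502 CPM, and the 4 Gpnmb+ retinas with at least 10000 genes had 38.1 to 92.3 CPM. Fosb, Ier3, Ier5 and Klf4 were the other members with a nominal p under 0.05.

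The best known members overlapped. Jun had 3258, 2876 and 2375 CPM against 2456 to 7836 CPM (median 4531), a log2 fold change of -0.78 ± 0.44. Fos and Egr1 had log2 fold changes of -0.69 ± 0.46 and -0.61 ± 0.57. Btg2, whose promoter is printed above, had 1287, 1542 and 966 CPM against 1191 to 2528 CPM (median 1795), a log2 fold change of -0.59 ± 0.46. Without the retinas with few genes the median of the list was -0.61, 0 members had a nominal p under 0.05 in either direction, and 3 of 25 lay below, where 7.75% of all genes did. Without Gpnmb+ animal 1 alone the median was -0.81, with 2 members lower at a nominal p under 0.05. Heat shock genes had a median of -0.47 over 17 members, with 1 lower and 0 higher at a nominal p under 0.05 and none outside the control range. Of the other lists, cytokines and NF-kB feedback had a median of -0.29 over 23 members with 2 lower and 0 higher, and oxidative phosphorylation (0.14), mitochondrial genome (-0.45), ribosomal protein (0.04), proliferation (-0.36), glycolysis (-0.15), TGF-beta signalling (0.25) and iron genes (0.18) had 0 members at a nominal p under 0.05 in either direction.

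Outside the lists, most of the lower genes with the smallest p were sparse in severe retinas. Rac1, a GTPase of the cytoskeleton, had 25.5, 15.01 and 32.02 CPM against 16.4 to 228 CPM (median 103), a log2 fold change of -2.36 ± 0.72 and -2.03 ± 0.63 without the retinas with few genes. Fem1b, a substrate adaptor of ubiquitin ligases, had 2.95, 0.188 and 1.59 CPM against 0 to 97.3 CPM (median 36.9). Gm10800, a predicted gene, was not sparse, with 258, 261 and 181 CPM against 234 to 6107 CPM (median 613), a log2 fold change of -3.12 ± 1.02.

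Markers of other cells gave the following values. Summed rod markers were 900.1, 1925 and 752 CPM in severe retinas and 263 to 22588 CPM (median 772) in Gpnmb+ retinas, the highest being the right eye of Gpnmb+ animal 2, the library with 3469 genes. The rod list had a median of -1.60, and 0.53 without the retinas with few genes. Monocyte and macrophage markers summed to 468 to 754 CPM in severe and 15.3 to 781 CPM in Gpnmb+ retinas, and 7 of 14 were at 0 in all severe retinas. Their median sum was 630.4 CPM in severe against 164 CPM in Gpnmb+ retinas, and the 9 tested had a median log2 fold change of 1.2999 with 7 positive, 1 higher and 0 lower at a nominal p under 0.05. Lyz2, the most abundant of them and also made by activated microglia, had 675, 628 and 381 CPM against 0 to 730 CPM (median 148). Border-associated macrophage markers summed to 44.9 to 164 CPM against 0 to 281 CPM. Neutrophil markers were at 0 in all 3 severe retinas and summed to 0 to 4.45 CPM in Gpnmb+ retinas. Endothelial markers summed to 10.3 to 35.6 CPM against 0 to 146 CPM, and pigment cell markers to 31.3 to 65.8 CPM against 0 to 49.9 CPM. Lymphocyte markers summed to 397 to 551 CPM against 94.1 to 535 CPM. In severe retinas nearly all of that was Ighm, at 397 to 550 CPM. The part of these markers in the gene groups above was not tested. In sorted bulk samples fewer cells of a type and less RNA per cell cannot be told apart.

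Severe retinas were also set against the mild and moderate retinas of the same strain and age. By edgeR 0 of 15959 genes passed (0% in each direction), the smallest adjusted p being 1. A nominal p under 0.05 was reached by 701 genes (4.39%), 588 of them higher in severe retinas (3.68%) and 113 lower (0.708%). Over all genes the median log2 fold change was 0.04, and the share with positive fold changes was not counted. Immediate early genes had a median log2 fold change of 0.66, with 18 of 25 positive and 3 higher at a nominal p under 0.05, against -1.22 relative to Gpnmb+. Ier2 had 478, 776 and 567 CPM in severe retinas, 149 to 494 CPM in moderate retinas and 82.6 to 235 CPM in mild retinas. Lysosomal genes had a median of 0.15 and MGnD genes of -0.13. Ribosomal protein genes had a median of -0.57 with 0 of 38 positive, and oxidative phosphorylation genes of -0.50, with 0 and 1 members lower and 0 higher at a nominal p under 0.05.

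P2ry12 had a log2 fold change of 0.81 ± 0.29 in this comparison, with moderate retinas at 894 to 1895 CPM and mild ones at 852 to 2985 CPM. Ctsb had 0.59 ± 0.27, while Apoe had 0.57 ± 0.65 and C1qa -0.04 ± 0.21. All 4 carry an edgeR adjusted p of 1. The mild animals read as male and the severe ones as female, so severe against mild cannot be told apart from sex.

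Animal 1 gives a comparison within 1 mouse, with no replicate and no test. Its severe left eye had 2992 CPM of P2ry12 against 958 CPM in the moderate right eye, 2698 against 955 CPM of Tmem119 and 10517 against 3468 CPM of Ctsd. Apoe ran the other way, with 15550 CPM in the severe and 32974 CPM in the moderate eye, as did Lyz2 (675 against 2325 CPM) and B2m (2184 against 4534 CPM). Of 34 resting-state genes 28 were higher in the severe eye (median log2 ratio 0.57 with a pseudocount of 1 CPM), as were 24 of 37 lysosomal (0.53), 19 of 25 immediate early (0.95), 9 of 36 MGnD (-0.75) and 1 of 38 ribosomal protein genes (-1.35). Over all genes the median was 0 and 45.3% were higher. The moderate eye had 4983389 counts, 2.98% mitochondrial counts and 6333 CPM of rod markers, against 9144746, 1.43% and 900.1 CPM in the severe eye. The part of these differences in the ratios was not tested. For P2ry12, Ctsd and Tmem119 the eyes of animal 3 were nearer to the severe than to the moderate eye of animal 1.

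**Figure D5:**
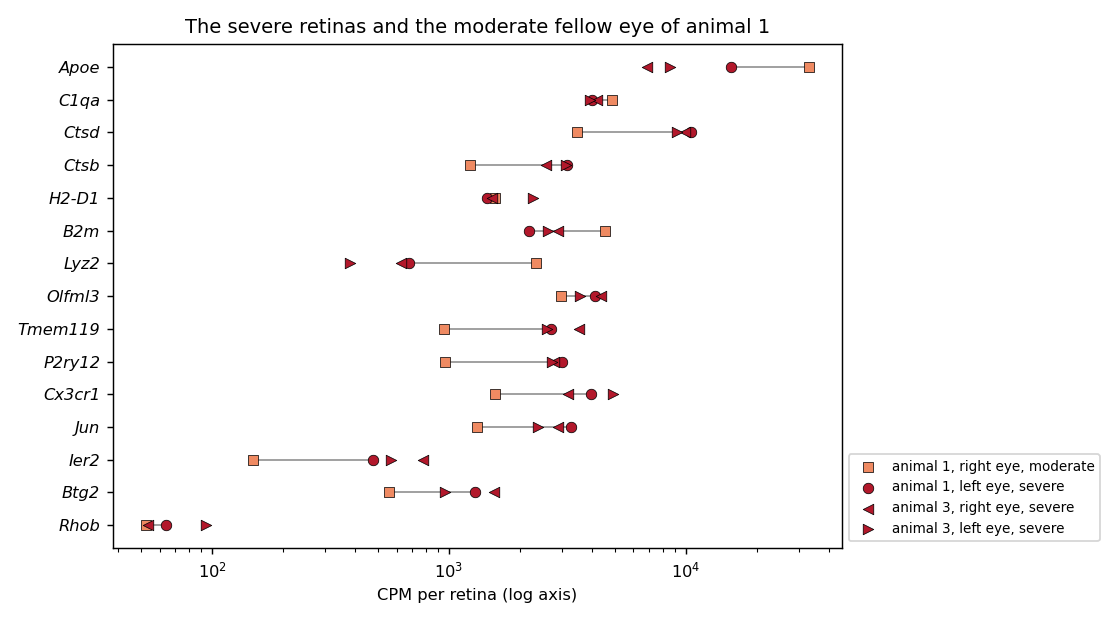
CPM per retina on a log axis for 15 genes in the 3 severe retinas (red) and the moderate right eye of DBA/2J animal 1 (orange square), with a grey line joining the eyes of animal 1. The moderate eye is lower for Ctsd, Tmem119 and P2ry12 and higher for Apoe, B2m and Lyz2 than each severe retina.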

How the data were processed

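Microglial RNA of 24 retinas was analysed from 1 table per retina. The deposited values are expected counts per gene, per the file headers, which are estimates that need not be whole. The submitters' processing notes list Salmon 1.4.0, DESeq2 1.30.1, R 4.0.3 and the build mm10 with no roles. Annotation and filters: not given in the sources used here. An FPKM table with 24 columns of per-sample values was not used. Of 47729 gene IDs, 47224 matched a symbol in the GRCm38 annotation.

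Counts were rounded and summed over the eyes of an animal with the same grade, giving 17 sums of 15 animals, which were taken as independent. A single fit of edgeR 4.0.16 in R 4.3.3 (quasi-likelihood F test, TMM scaling, filterByExpr at a count of 10 and a total of 15, 5 groups, 12 residual degrees of freedom) gave severe minus Gpnmb+ and severe minus the mean of mild and moderate. The Benjamini-Hochberg method was applied to two-sided p-values of 15959 genes, with a threshold of 0.05; nominal p-values are those before it. SE is the log2 fold change divided by the root of F. A retina's CPM is its count over the total of its library, times 1000000. An upper limit at 0 counts is 3 counts of the total, for counting error only. P-values rest on the spread between sums, pooled over the 5 groups. DBA/2J animals 1 and 5 give a sum for each eye, while other sums can hold both eyes. Of 39 pairs of retinas within a group, none agreed within sampling noise (smallest chi-square per degree of freedom 120.1).

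The comparison, the 31 gene lists, the named genes and the alternatives were chosen with earlier results of these data known. Named were a fixed set, in each direction the 10 genes of smallest p among those averaging at least 4 on the log2 CPM scale, and the 4 leading genes by p within a list where 15% or more of the members had a nominal p under 0.05 or that marks a cell type. Genes named beside motifs, sex and counts of calls, as well as Ly6c2, Slc1a3 and Fcgr4, were chosen outside this rule. The test was tried on simulated counts of 15236 genes, 200 of them changed, drawn once with the spread that edgeR had estimated for each gene. Alternatives were DESeq2 1.42.0, RLE scaling, other filters and groups, retinas as units (with limma 3.58.1 for a random animal effect), a replicate block, sample quality weights, fewer retinas, and each animal left out. A term for sex and leaving out libraries of doubtful origin were added after seeing the data.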

Additional observations from a re-analysis of the deposited data

Results flagged for a closer look

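In 9 of 68 groups of animals or retinas examined for a value far from the rest, the highest value stood apart by Dixon's criterion. Its nominal rate of about 1 in 20 holds for normally distributed values, and CPM with many zeros need not be so. Where the other animals are at 0, any count is flagged, as for Apoc1 and Cfb. The 9 therefore cannot be set against that rate. All 9 lay in Gpnmb+ and none in the severe retinas, whose 2 animals are too few for the criterion. In Gpnmb+ animal 1, whose eyes had 9518 and 9341 genes, Egr1 had 5376 CPM against 1698 to 2655 in the other animals, Ier5 499.3 against 88.63 to 196.3, Klf2 640.0 against 47.57 to 88.42, and Rac1 297.4 against 61.75 to 126.5. In Gpnmb+ animal 2, H2-Ab1 had 807.2 CPM against 62.14 to 193.3, and its right eye had 22588 CPM of summed rod markers against 263.41 to 8032 in the other retinas. In Gpnmb+ animal 5, Lpl had 18.55 CPM against 0 to 0.3643 and Apoc1 0.1316 CPM against 0. Cfb had 0.05952 CPM in Gpnmb+ animal 3 against 0 in the others. These values are CPM over the TMM-scaled total of the genes tested, except that of the rod markers.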

How the results depend on the processing

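The count of genes with an adjusted p under 0.05, 0 in each comparison, was the same in 30 alternative fits and larger in 9. Against Gpnmb+, DESeq2 gave 277 genes (29 higher, 248 lower), no filter on low counts 10, a random animal effect 32 (31 higher, 1 lower) and sample quality weights 46 (37 higher, 9 lower). Against mild and moderate retinas the same fits gave 226, 6, 2 (Nradd and Ctss) and 20. With the animal number as a replicate block 1 gene, AY036118, was lower against Gpnmb+ and 0 against the other grades. Deviations of same-numbered severe and Gpnmb+ animals from their group means correlated at 0.011 and -0.0079. With only 2 severe sums these deviations mirror each other, so the check cannot show whether the number pairs animals. Leaving out each animal gave 0 genes throughout, with a smallest adjusted p by edgeR of 0.0644 without Gpnmb+ animal 5. The unadjusted split, 491 higher and 192 lower, was 137 and 172 with at least 50 counts in 5 sums, and DESeq2 had 213 and 856.

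Some log2 fold changes changed sign. Sall1 was 0.038 with each retina as a replicate, 0.20 with a random animal effect, 0.19 with the block, 0.35 without retinas with few genes, 0.20 with quality weights, 0.22 without Gpnmb+ animal 2 and 0.21 without that animal and the right eye of Gpnmb+ animal 5. H2-Ab1 in the same order was 0.17, 0.89, 0.067, 0.73, 0.44, 0.55 and 0.49. With the block Itgax was -0.52 and Cst7 -0.86. Without the retinas with few genes Lgals3 was -0.18 and Csf1r -0.19. With quality weights Lgals3 was -2.53, Itgax -2.96, Cst7 -3.88 and P2ry12 -0.046, and with 1 retina per animal and grade Lgals3 was -5.46. Over the fits that left out 1 animal, where a lone severe animal is assumed to vary like the other groups, the ranges were -0.98 to 2.03 for Spp1, -8.62 to 1.53 for Lgals3, -8.56 to 1.87 for Itgax, -10.29 to 1.83 for Cst7, -0.11 to 0.50 for Csf1r and -1.31 to 8.92 for Cfb, with the lowest value without severe animal 3. Ranges were -0.31 to 0.22 for Sall1, -1.49 to 0.55 for H2-Ab1 and -8.75 to 0.40 for Lpl, which was positive without Gpnmb+ animal 5. Of the list medians described, those that changed sign included rods at 0.53 without retinas with few genes and 0.32 with quality weights, MHC class II at -0.002 with 1 retina per animal and -0.65 without severe animal 3, complement at -0.12 without severe animal 3 (highest 0.67), and interferon response at -1.21 without severe animal 3 and -0.071 without retinas with few genes. The medians of cytokine, heat shock, oxidative phosphorylation, ribosomal protein, proliferation, glycolysis, TGF-beta and iron genes each changed sign in at least 1 fit, and that of all genes, -0.06, was 0.50 with a random animal effect and 0.16 with the block. The cause was not tested. Setting members at 0 throughout a group to the limit of 3 counts over that group moved 2 list medians, that of endothelium and pericytes from -3.38 to -2.21 and that of bipolar, amacrine and horizontal cells from -1.21 to -1.50. A term for sex gave 0 genes in each comparison.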
